A study of Mus musculus with 2 samples.

Results

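Natural killer (NK) and innate lymphoid cells made up 266 of the 19019 thymus cells that carried a single genotype hashtag, or 1.40%. They were chosen on measured transcripts, counted as unique molecular identifiers (UMIs, each standing for 1 captured transcript). A cell was a member when Gzma, Ncr1 and Klrb1c together had at least 3 UMIs and the T cell receptor subunits Cd3d, Cd3e and Cd3g together had at most 1. In addition, no more than 1% of its UMIs came from the class II genes Cd74, H2-Aa and H2-Ab1, and under 3% from S100a8 and S100a9. Levels of these genes in the members are descriptions, since they chose the cells. Of the members, 90 came from mice carrying the Mgl2DTR_eGFP allele (Mgl2DTR), given 500 ng of diphtheria toxin with 48 h of exposure, and 176 came from wild-type mice of the B6 strain (WT). All mice were 7 weeks old. The name of the allele joins Mgl2 with DTR, the receptor for that toxin, and eGFP, a fluorescent protein. The labels do not say which cells carry the receptor, whether WT mice also received toxin, or how many animals were used. Cells of both genotypes were run in 1 pool with no animal named, so each genotype is 1 library, no difference below has a replicate check, and no test was made.

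NK cells are lymphocytes without rearranged antigen receptors that kill stressed or infected cells with perforin and granzymes, under the control of activating and inhibitory surface receptors. Innate lymphoid cells are their tissue-resident relatives, grouped by the cytokines they make: group 1 cells share T-bet, Ncr1 and interferon gamma with NK cells, group 2 cells make type 2 cytokines, and group 3 cells make IL-17 and IL-22. The thymus holds a particular NK population that carries the IL-7 receptor, depends on GATA3 and has fewer Ly49 receptors and less killing activity than splenic NK cells.

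The thymi had been digested with collagenase D at 1 mg/ml, cells with CD90.2 had been depleted on magnetic beads, and the live cells were sorted after staining for CD11b and CD11c. CD90.2 is the product of Thy1, which many innate lymphoid cells carry, and mature NK cells carry CD11b and low CD11c, so these steps can set which members were present. Thy1 was at 33.3 CPM in Mgl2DTR members and 64.7 CPM in WT members. CPM is the UMIs of a gene as counts per 1000000 UMIs, summed over the cells of a genotype, and a range in parentheses is an exact 95% interval that covers counting error only. Itgam, the CD11b gene, was detected in 24.4% of Mgl2DTR members and 33.0% of WT members. Itgax, the CD11c gene, was detected in 42.2% of Mgl2DTR members and 42.0% of WT members.

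Members held 420419 UMIs in Mgl2DTR and 680330 in WT, with medians of 3078.5 per cell in Mgl2DTR and 2807.5 in WT. Over all analysed cells the medians were 6930 in Mgl2DTR and 7820 in WT. No barcode was shared between the deposited gene tables. A few deep cells weighed on every sum: 17 Mgl2DTR members with more than 2 times the members' median held 47.7% of the Mgl2DTR UMIs, and 23 WT members held 38.0% of the WT UMIs. Mgl2 itself was at 17.9 CPM in all Mgl2DTR cells and 109 CPM in all WT cells, and in members it had 0 UMIs in Mgl2DTR and 26, from 5 cells, in WT. UMIs of other cell types' markers were common, since 56 of 90 Mgl2DTR members (62.2%) and 117 of 176 WT members (66.5%) had 2 or more UMIs from 35 markers of B cells, dendritic cells, monocytes, macrophages and neutrophils.

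Markers that the rule did not use were set beside T cells and B cells without NK UMIs. Those sets were chosen to differ from the members in NK UMIs, so the contrast describes the members and does not test the label. Nkg7, a granule membrane protein of cytotoxic lymphocytes, was detected in 99.3% of members, 22.2% of 2051 T cells without Rag transcripts and 3.34% of 598 B cells from the same pool, both chosen to have 0 UMIs of Gzma, Ncr1 and Klrb1c. Klrd1, the CD94 subunit shared by activating and inhibitory NK receptors, was detected in 85.3% of members, 9.31% of T cells and 16.9% of B cells. The pattern held at the edge of the rule: all 17 cells with exactly 3 NK UMIs had an Nkg7 UMI, as had 90.0% of the 20 cells with exactly 2, which were left out. There were 30 members with 1 Cd3 UMI, 6 cells were left out for 2 Cd3 UMIs and 148 for 3 or more, 6 for a class II share of 1 to 2%, and 4 for their S100 share. Of the 148 cells with NK UMIs and 3 or more Cd3 UMIs, 77.7% had an Nkg7 UMI and 58.1% a Klrd1 UMI. These markers therefore set the members less apart from such cells than from the T cells above.

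**Figure D1:**
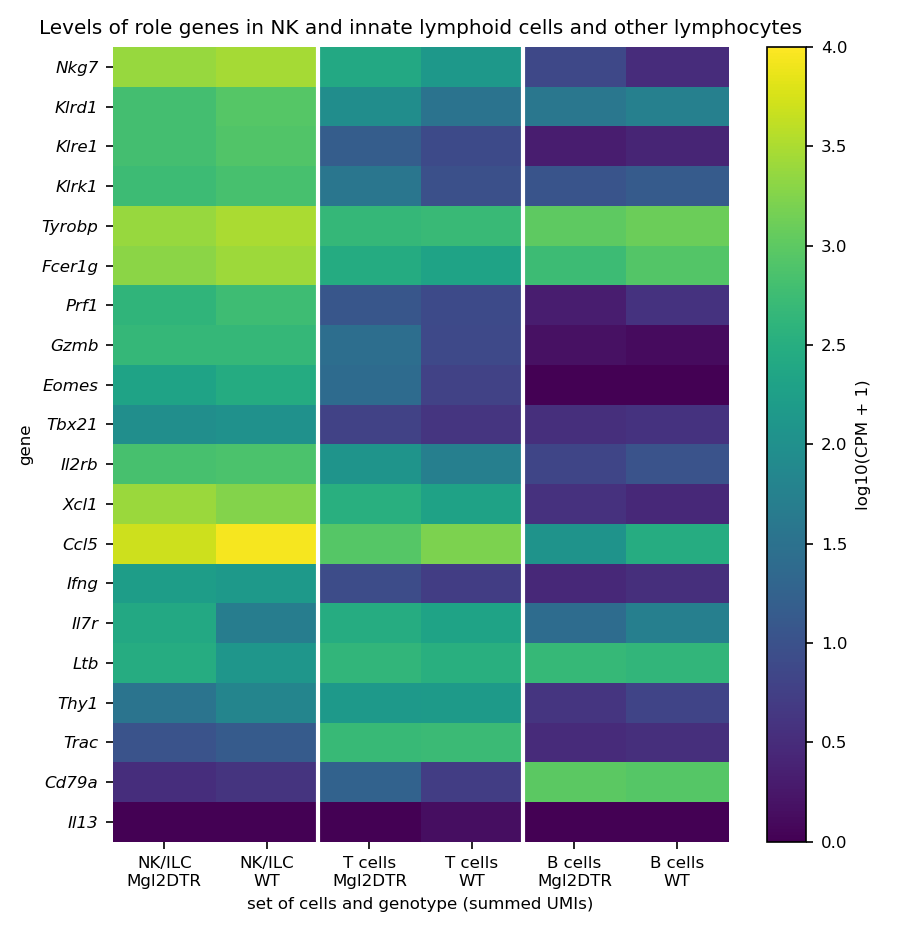
Columns are the members, T cells and B cells of each genotype, rows are genes, and colour is log10(CPM + 1) of the summed UMIs. Nkg7 and Klrd1 were high in both member columns, and Il13 was at 0 in them.

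Markers of the group 2 and group 3 innate lymphoid cells were mostly missing. Il22, which group 3 cells make, Il1rl1, the IL-33 receptor of group 2 cells, and Il4, Il13 and Il10 each had 0 UMIs in 266 members, which allows a share of up to 1.13% of cells with a UMI. Group 2 markers summed to 35.7 CPM in Mgl2DTR members and 13.2 CPM in WT members, and group 3 markers to 7.14 CPM in Mgl2DTR and 1.47 CPM in WT. Group 1 markers were at 609 CPM in Mgl2DTR members, 262 CPM of it from Il7r, and 278 CPM in WT members. The same markers summed to 551 CPM in Mgl2DTR and 484 CPM in WT T cells, and to 330 CPM in Mgl2DTR and 633 CPM in WT B cells. This sum therefore does not single out the members. The rule itself asks for Gzma, Ncr1 and Klrb1c, which group 2 and most group 3 cells lack, so these values describe the members and not the thymus.

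Promoters of NK genes are printed here because most of those on the marker list held a Runx motif, the sequence TGTGGT or its reverse complement ACCACA, which is the core bound by Runx factors. Among the 9 marker promoters in RefSeq's table for GRCm38.p6, each reaching from 250 bases before the start to 50 after it, 8 held the motif on either strand (88.9%), namely those of Gzma, Gzmb, Klrb1c, Klre1, Klrk1, Ncr1, Nkg7 and Prf1, against 16.9% of 27025 promoters of all genes. The share was 8 of 16 in the granule gene list and 8 of 19 in the activating receptor list. A T-box motif, TCACAC or GTGTGA, was found in 4 of the 9 marker promoters and 14.4% of all promoters, and matches of these motifs may overlap. Gzma, Ncr1 and Klrb1c are rule genes, and the match says nothing of binding. The promoters of Nkg7 (chr7:43436888-43437187, plus strand), a marker that the rule did not use, Ncr1 (chr7:4337465-4337764, plus strand), a gene of the rule, and Il7r (chr15:9529827-9530126, minus strand), a cytokine receptor called higher in Mgl2DTR members below, are given 5′ to 3′ with the Runx motif in capitals. Il7r is not on the NK marker list, and a link of its motif to the genotype difference was not tested.
Nkg7 promoter: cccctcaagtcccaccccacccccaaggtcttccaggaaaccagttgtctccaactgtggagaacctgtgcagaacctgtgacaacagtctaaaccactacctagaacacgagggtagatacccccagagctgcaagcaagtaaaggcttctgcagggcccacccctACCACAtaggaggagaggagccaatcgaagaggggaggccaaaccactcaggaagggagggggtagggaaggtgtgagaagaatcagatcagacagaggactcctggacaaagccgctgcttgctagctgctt
Ncr1 promoter: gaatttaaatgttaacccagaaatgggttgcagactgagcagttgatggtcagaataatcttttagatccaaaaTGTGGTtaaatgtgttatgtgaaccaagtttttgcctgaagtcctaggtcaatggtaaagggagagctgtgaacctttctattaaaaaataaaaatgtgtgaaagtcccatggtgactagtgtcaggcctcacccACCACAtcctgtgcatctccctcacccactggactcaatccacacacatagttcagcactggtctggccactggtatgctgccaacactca
Il7r promoter: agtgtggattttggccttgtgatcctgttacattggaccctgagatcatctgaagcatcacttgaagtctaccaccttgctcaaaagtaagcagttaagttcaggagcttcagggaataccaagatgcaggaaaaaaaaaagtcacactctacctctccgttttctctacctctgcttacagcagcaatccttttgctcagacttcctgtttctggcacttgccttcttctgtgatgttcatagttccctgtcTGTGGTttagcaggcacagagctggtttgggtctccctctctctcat
The Ncr1 window held the motif once on each strand, the Nkg7 window held 1 match as ACCACA, and the Il7r window held 1 match as TGTGGT close to the start. Runx3, the family member best known in NK cells, was at 271 CPM in Mgl2DTR members and 295 CPM in WT members.

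Members formed 1.21% of Mgl2DTR cells (0.975 to 1.49%) and 1.52% of WT cells (1.30 to 1.76%). The ratio of Mgl2DTR to WT was 0.797, and its interval of 0.611 to 1.03, which counts cells of 1 library per genotype, spanned 1. In 4 of 8 alternatives the interval lay below 1: when members needed 6 NK UMIs (ratio 0.675, 0.50 to 0.903), without members over 2 times the median UMIs (0.744), after thinning each cell to 2000 UMIs (0.689), and when cells that were not T cells were the denominator (0.648, 0.497 to 0.840). In the other 4 the interval spanned 1. These ratios were 0.909 at a high hashtag margin, 0.846 with 0 Cd3 UMIs, 0.813 without cells over 5% mitochondrial UMIs and 0.891 with 2 NK UMIs. Members over 2 times the median UMIs were dropped from the members alone, while the cells they were divided by stayed the same. Shares are of sorted cells, and the depletion and sort named above can set them. T cells were 475 Mgl2DTR and 1576 WT cells in the same pool.

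Members without a UMI of Gzma, a granule protease that triggers death in target cells, made up a larger share of members in Mgl2DTR. Of Mgl2DTR members, 24 of 90 had no Gzma UMI (26.7%, 17.9 to 37.0%), against 14 of 176 WT members (7.95%, 4.42 to 13.0%), a ratio of 3.35 (1.67 to 7.01). As a share of all cells, members without Gzma were 0.323% in Mgl2DTR and 0.121% in WT, a ratio of 2.67 (1.33 to 5.59), and members with Gzma were 0.888% in Mgl2DTR and 1.40% in WT, a ratio of 0.635 (0.470 to 0.851). Members without Gzma held a median of 4600.5 UMIs in Mgl2DTR and 4383 in WT, and members with it 2827 in Mgl2DTR and 2769.5 in WT, and the rule asks members without Gzma for 3 UMIs of Ncr1 and Klrb1c alone, which takes deeper cells. Gzma varied widely among members: the median cell held 3641 CPM in Mgl2DTR (quartiles 0 and 14420) and 9545 CPM in WT (quartiles 3274 and 17280), and among cells with a UMI the medians were 9330 CPM in Mgl2DTR and 10610 CPM in WT. In Xcr1 or Clec9a dendritic cells, which should lack it, a Gzma UMI was found in 1.57% of Mgl2DTR and 2.30% of WT cells. These were 26 Gzma UMIs in 25 Mgl2DTR cells and 639 in 59 WT cells, so some WT cells held many. After each cell was thinned to 2000 UMIs, a Gzma UMI was found in 66.7% of 78 Mgl2DTR members and 88.8% of 143 WT members. The split was chosen after the values were seen and on a gene of the rule, so it is a description. The shares were 16 of 73 in Mgl2DTR (21.9%) and 12 of 153 in WT (7.84%) without members over 2 times the median UMIs. Without the members holding 2 or more UMIs of other cell types' markers, they were 8 of 34 in Mgl2DTR and 5 of 59 in WT, and the interval of the ratio (2.78, 0.801 to 10.8) spanned 1.

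**Figure D2:**
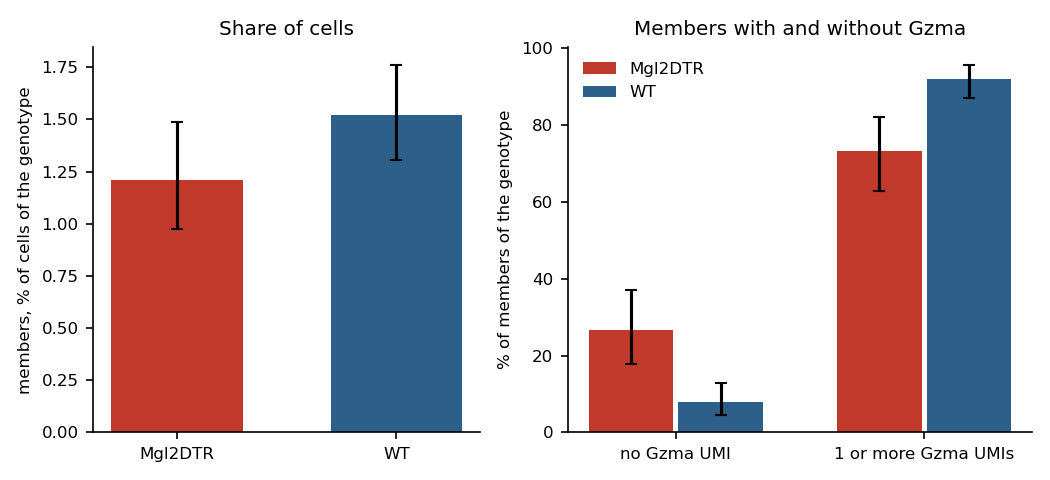
Bars on the left give members as a percent of all cells of a genotype (1.21% in Mgl2DTR, 1.52% in WT), and bars on the right the percent of members without and with a Gzma UMI; black lines are exact 95% binomial intervals. Members without Gzma were 26.7% in Mgl2DTR and 7.95% in WT.

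Members without Gzma had a different set of transcripts, described here over both genotypes with genes chosen after their values were seen. Gzmc, another granzyme, was at 3263 CPM in members without Gzma and 1.13 CPM in members with it, as 710 UMIs against 1. Il7r, the IL-7 receptor alpha chain, was at 437 CPM without Gzma and 54.4 CPM with it. Itga1, the CD49a integrin of tissue-resident cells, was at 179 CPM without Gzma and 15.8 CPM with it, and Cxcr6, a chemokine receptor of resident lymphocytes, at 175 CPM without Gzma and 2.27 CPM with it. Of other genes known from tissue-resident group 1 cells, Cd200r1 was at 4.60 CPM without Gzma and 4.53 CPM with it, and Zfp683, the gene of Hobit, had 1 UMI without and 0 with it. S100a4, a calcium-binding protein, was at 1291 CPM without Gzma and 117 CPM with it, Ltb (lymphotoxin beta) at 528 CPM without Gzma and 109 CPM with it, and Cd7, an early lymphoid surface protein, at 616 CPM without and 210 CPM with it. Xcl1, a chemokine that attracts cross-presenting dendritic cells, was at 3258 CPM without Gzma and 1808 CPM with it. Tnfsf10, the death ligand TRAIL, was at 115 CPM without Gzma and 18.1 CPM with it. Tcrg-C4, a constant region of the gamma-delta T cell receptor, was at 87.3 CPM without Gzma and 3.40 CPM with it.

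Other genes were lower without Gzma. Gzmb was at 9.19 CPM in members without Gzma and 571 CPM in members with it, the pore protein Prf1 at 64.3 CPM without and 625 CPM with it, and Nkg7 at 1572 CPM without and 3046 CPM with it. Ccl5, a chemokine stored by mature cytotoxic lymphocytes, was at 924 CPM without Gzma and 8967 CPM with it, and Zeb2, a factor of terminal NK maturation, at 13.8 CPM without and 232 CPM with it. Itgam had 0 UMIs without Gzma and 109 with it, and Klrg1, an inhibitory receptor of mature NK cells, had 0 without and 53 with it. Ctsw, a protease of cytotoxic lymphocytes, went the other way and was higher without Gzma, at 1107 CPM against 488 CPM with it. Eomes, the T-box factor that separates NK cells from group 1 innate lymphoid cells in many tissues, was at 133 CPM without Gzma and 288 CPM with it. All 29 Eomes UMIs of members without Gzma were in cells with a UMI of a Ly49 (Klra) receptor, 8 of 11 such Mgl2DTR cells and 3 of 5 such WT cells, and the 22 members with neither Gzma nor a Ly49 UMI had 0. A UMI of any Ly49 receptor was found in 45.8% of Mgl2DTR and 35.7% of WT members without Gzma, against 89.4% of Mgl2DTR and 85.8% of WT members with it. Some NK receptors differed less: Klrd1 was at 873 CPM without Gzma and 764 CPM with it, and the activating receptor Klrk1 (NKG2D) at 676 CPM without and 626 CPM with it. Klre1, another receptor of the NK marker list, was lower without Gzma, at 253 CPM against 870 CPM with it.

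**Figure D3:**
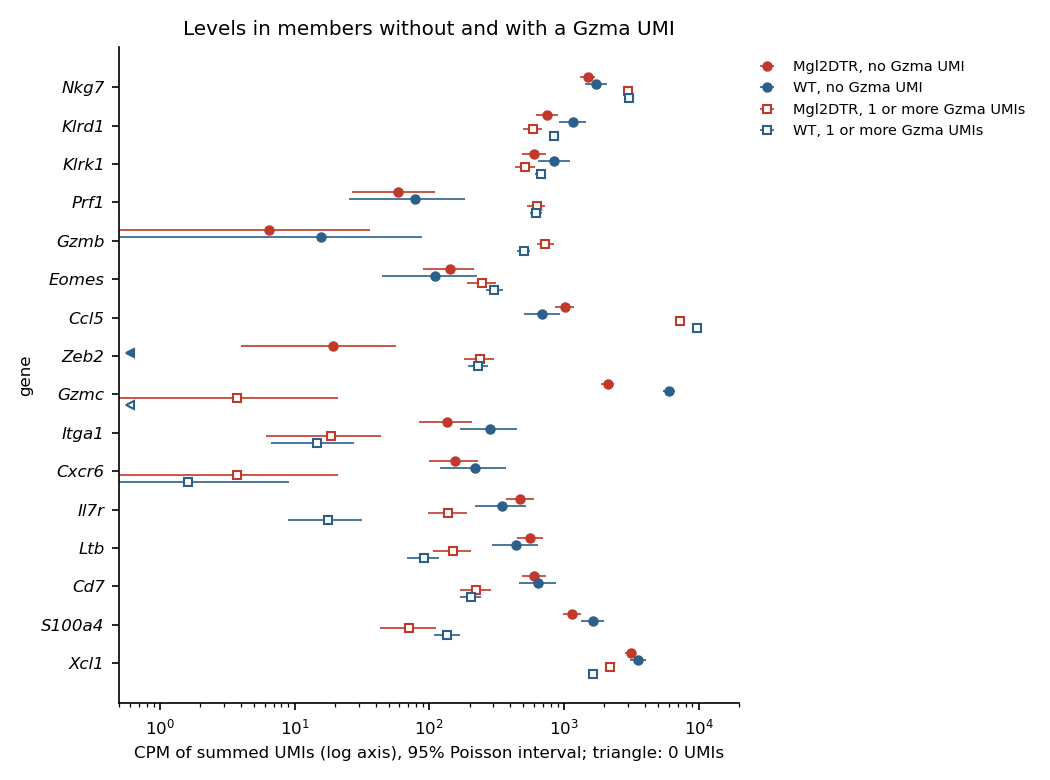
Each point is the CPM (log axis) of a gene in members without or with a Gzma UMI, by genotype, with its 95% Poisson interval; a triangle marks 0 UMIs. Il7r, Cxcr6 and Gzmc sat higher without Gzma, and Gzmb, Prf1 and Ccl5 sat higher with it, in both genotypes.

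Gzmc came from a small number of cells. It was detected in 7 of 90 Mgl2DTR members (7.78%, 3.18 to 15.4%) and 5 of 176 WT members (2.84%, 0.929 to 6.51%), with 1 to 252 UMIs per cell in Mgl2DTR and 5 to 119 in WT. Of these 12 cells, 1 had a Gzma UMI and 1 an Eomes UMI, whereas 9 had Il7r, 10 had Itga1 and 11 had S100a4. All 12 had Ncr1, a gene of the rule. Cells without Gzma could be members only through Ncr1 and Klrb1c, so that count was largely set in advance. A single Mgl2DTR cell held 252 of the Mgl2DTR UMIs, so the summed level of Gzmc, 780 CPM in Mgl2DTR and 563 CPM in WT, rests on few cells. Its ratio was 1.39 over all members and 0.471 without the cell holding the most Gzmc UMIs in each genotype. It was 0.259 without members over 2 times the median UMIs and 0.351 within members without Gzma, and no direction is read from it. Gzmc (chr14:56231441-56234656, minus strand, build mm10, as are all gene positions) lies in a cluster of similar granzyme genes, and reads shared with its neighbours could not be told apart here. In Xcr1 or Clec9a dendritic cells, which should lack it, a Gzmc UMI was found in 1.13% of 1589 Mgl2DTR and 0.974% of 2568 WT cells, at medians of 15260 UMIs in Mgl2DTR and 16070 in WT. These were 432 Gzmc UMIs in 18 Mgl2DTR cells (16.9 CPM) and 27 in 25 WT cells (0.608 CPM). The near-equal shares thus do not show an even background, and the source of these UMIs was not tested.

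Between genotypes, 3074 genes had at least 50 UMIs over all members and were measured. A gene is called higher or lower below when its Mgl2DTR to WT ratio was at least 1.5 either way and the whole counting interval lay on that side of 1. By this rule 164 genes were higher in Mgl2DTR members (5.34%) and 142 were lower (4.62%), and the median log2 ratio of all measured genes was −0.01. The counts without members over 2 times the median UMIs were 59 higher and 61 lower, and without members holding other types' markers 20 higher and 25 lower. In such sums, fewer cells of a kind and less of a transcript per cell cannot be told apart. Every list count below stands beside the shares of all measured genes, 5.34% higher and 4.62% lower. A count near those shares is no result about its list.

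The cytokine receptors were led by Il7r, through which IL-7 supports survival. Il7r (chr15:9505788-9530176, minus strand) was at 262 CPM in Mgl2DTR members (215 to 315) and 48.5 CPM in WT members (33.4 to 68.1), a ratio of 5.39 (3.63 to 8.22). It was detected in 24 of 90 Mgl2DTR members and 16 of 176 WT members. In T cells it was at 303 CPM in Mgl2DTR and 208 CPM in WT, a ratio of 1.46, and in B cells at 25.4 CPM in Mgl2DTR and 52.3 CPM in WT, a ratio of 0.485. Within members without Gzma, Il7r was at 474 CPM in Mgl2DTR and 347 CPM in WT, a ratio of 1.37 (0.838 to 2.31), and was found in 18 of 24 Mgl2DTR and 9 of 14 WT cells. Within members with Gzma it was at 139 CPM in Mgl2DTR (37 UMIs) and 17.8 CPM in WT (11 UMIs), and was found in 6 of 66 Mgl2DTR and 7 of 162 WT cells. Of the 37 Il7r UMIs in Mgl2DTR members with Gzma, 14 and 11 came from 2 deep cells, of 22572 and 15719 UMIs, which had 11 and 3 Gzma UMIs. After thinning, Il7r was detected in 20.5% of Mgl2DTR members and 8.39% of WT members, against 0.971% of Mgl2DTR and 1.53% of WT Xcr1 or Clec9a dendritic cells.

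Of the other 9 measured cytokine receptors, 1 was lower and 8 were neither, and the median log2 ratio of the list was −0.12. Il10ra, the IL-10 receptor chain, was at 26.2 CPM in Mgl2DTR and 66.1 CPM in WT, a ratio of 0.396. Il2rb, the shared receptor chain for IL-2 and IL-15, was at 685 CPM in Mgl2DTR and 738 CPM in WT, and Il2rg, the common gamma chain, at 266 CPM in both. The type 2 cytokine pathway, which the study's title names, had 5 measured genes, a median log2 ratio of 0.00 and 0 called. Most of all measured genes were not called (5.34% were higher and 4.62% lower), so this count is no result about the pathway. Jak1 was at 564 CPM in Mgl2DTR and 684 CPM in WT, Stat6, the signal transducer of IL-4, at 38.1 CPM in Mgl2DTR and 55.9 CPM in WT, Socs1, its feedback inhibitor, at 78.5 CPM in Mgl2DTR and 51.5 CPM in WT, and Gata3 at 69.0 CPM in Mgl2DTR and 48.5 CPM in WT. Of the IL-2 and IL-15 response genes, 1 of 7 was called (list median −0.08), the costimulatory receptor Tnfrsf9 (4-1BB), at 128 CPM in Mgl2DTR and 54.4 CPM in WT.

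Secreted factors differed in both directions, with 2 higher and 1 lower of 7 measured and a median log2 ratio of 0.29. Ltb (chr17:35194439-35196320, plus strand), which shapes thymic stroma and lymphoid tissue, was at 302 CPM in Mgl2DTR members and 124 CPM in WT members, a ratio of 2.45 (1.84 to 3.26), and was detected in 48.9% of Mgl2DTR and 26.1% of WT members. Ccl5 (chr11:83525778-83530518, minus strand) was at 4988 CPM in Mgl2DTR (4777 to 5206) and 8853 CPM in WT (8631 to 9080), a ratio of 0.563 (0.536 to 0.592). The median cell held 6362 CPM of Ccl5 in Mgl2DTR (quartiles 1315 and 12210) and 8961 CPM in WT (quartiles 3594 and 15600), so the cells of the genotypes overlapped. The Ccl5 ratio was 0.770 without members over 2 times the median UMIs and 0.730 after thinning, neither of which meets the size rule. Within members with Gzma it was 0.752, from 7286 CPM in Mgl2DTR and 9692 CPM in WT, and within members without Gzma it was 1.47, from 1019 CPM in Mgl2DTR and 693 CPM in WT. The other higher gene, the chemokine Ccl1, rested on 72 UMIs in Mgl2DTR, 45 and 27 of them in 2 cells, and 4 UMIs in WT. Xcl1 was at 2543 CPM in Mgl2DTR and 1818 CPM in WT (ratio 1.40), Ccl4 at 1993 CPM in Mgl2DTR and 2860 CPM in WT, and Ifng, interferon gamma, at 169 CPM in Mgl2DTR and 138 CPM in WT, none of which met the size rule.

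**Figure D4:**
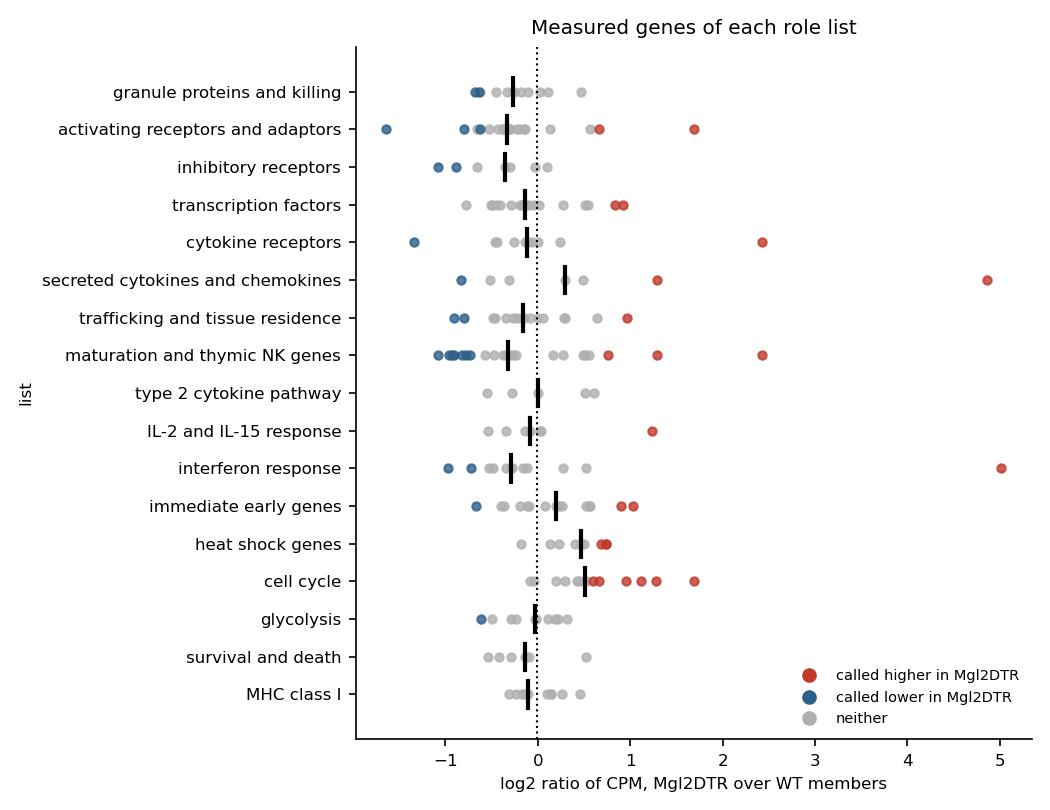
Each point is a measured gene of a role list at its log2 ratio of Mgl2DTR over WT CPM, coloured by its call, black ticks are list medians, and the dotted line is the median of all measured genes (−0.01). The medians ran from −0.36 for inhibitory receptors to 0.51 for the cell cycle.

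Of 12 measured granule genes, 0 were higher and 2 lower, where 5.34% of all measured genes were higher and 4.62% lower, with a median log2 ratio of −0.27. Gzmb was at 464 CPM in Mgl2DTR and 457 CPM in WT, Prf1 at 419 CPM in Mgl2DTR and 573 CPM in WT, Nkg7 at 2455 CPM in Mgl2DTR and 2940 CPM in WT, and Fasl, the death ligand, at 119 CPM in Mgl2DTR and 150 CPM in WT. The 2 genes that were lower were protease inhibitors: Serpinb9, which protects the killer from its own granzyme B, at 214 CPM in Mgl2DTR and 344 CPM in WT, and the related Serpinb6b at 183 CPM in Mgl2DTR and 285 CPM in WT. Within members with Gzma, Prf1 was at 627 CPM in Mgl2DTR and 624 CPM in WT, and Gzmb at 729 CPM in Mgl2DTR and 502 CPM in WT, a ratio of 1.45 (1.21 to 1.74). The Gzmb ratio over all members, 1.01, depended on the cells kept: it was 1.66 after thinning, 1.70 without members over 2 times the median UMIs, 1.98 without members holding other types' markers, 0.837 with 0 Cd3 UMIs and 0.354 at a high hashtag margin.

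Activating receptors and adaptors had 2 genes higher and 3 lower of 23, with a median log2 ratio of −0.34. Sh2d1a (chrX:42502453-42529330, plus strand), the SAP adaptor of the SLAM family receptors, was at 57.1 CPM in Mgl2DTR and 178 CPM in WT, a ratio of 0.321 (0.198 to 0.50), and in T cells at 71.4 CPM in Mgl2DTR and 90.8 CPM in WT. Its ratio within members with Gzma was 0.467, from 86.4 CPM in Mgl2DTR and 185 CPM in WT. Cd247, the CD3 zeta chain, was at 52.3 CPM in Mgl2DTR and 91.1 CPM in WT, and Klri2, a lectin-like receptor, at 140 CPM in Mgl2DTR and 216 CPM in WT. The 2 higher genes were Crtam, a receptor for nectin-like proteins, at 95.1 CPM in Mgl2DTR and 29.4 CPM in WT, and Cd160, a receptor for HVEM, at 109 CPM in Mgl2DTR and 69.1 CPM in WT. Tyrobp, the DAP12 adaptor (2410 CPM in Mgl2DTR and 3137 CPM in WT), the gamma chain adaptor Fcer1g (2041 CPM in Mgl2DTR and 2581 CPM in WT) and Klrd1 (647 CPM in Mgl2DTR and 872 CPM in WT) were neither. Inhibitory receptors had 0 higher and 2 lower of 7, with a median log2 ratio of −0.36. Klra7, the Ly49G receptor, was at 245 CPM in Mgl2DTR and 454 CPM in WT, whereas Klra4, which encodes the activating Ly49D although it stands on this list, was at 466 CPM in Mgl2DTR and 437 CPM in WT. Klrg1 was at 28.5 CPM in Mgl2DTR and 60.3 CPM in WT. Klra genes are near copies of each other, so UMIs may be split between them.

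Transcription factors had 2 higher and 0 lower of 18, with a median log2 ratio of −0.14. Eomes was at 209 CPM in Mgl2DTR and 287 CPM in WT, Tbx21, the gene of T-bet, at 92.8 CPM in Mgl2DTR and 106 CPM in WT, and Id2, needed by all innate lymphoid lineages, at 638 CPM in Mgl2DTR and 716 CPM in WT, and none was called. Ikzf2, the Helios factor, was at 114 CPM in Mgl2DTR and 60.3 CPM in WT, and Ahr, the aryl hydrocarbon receptor, at 78.5 CPM in Mgl2DTR and 44.1 CPM in WT, with a ratio of 0.859 for Ahr without members holding other types' markers.

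The list of maturation and thymic NK genes was divided, with 3 of 22 higher, 7 lower and a median log2 ratio of −0.32. Il7r, Ltb and S100a4 were higher in Mgl2DTR. The lower genes were Itgam (64.2 CPM in Mgl2DTR and 120 CPM in WT), Klrg1, Thy1, the Ly6C antigen gene Ly6c2 (209 CPM in Mgl2DTR and 348 CPM in WT), Cma1, a chymase best known in mast cells (57.1 CPM in Mgl2DTR and 109 CPM in WT), the calcium-binding S100a6 (764 CPM in Mgl2DTR and 1305 CPM in WT) and the galectin gene Lgals3 (80.9 CPM in Mgl2DTR and 143 CPM in WT). The trafficking list had 1 gene higher, Cd69, and 2 lower, among them Itgam, of 16, with a median log2 ratio of −0.16. Cd69, an early activation and residence marker, was at 321 CPM in Mgl2DTR and 165 CPM in WT, and its ratio was 2.44 in members with Gzma, 0.802 in members without, and 0.992 without members over 2 times the median UMIs. The Ly6c2 ratio was also on the other side of 1 without those deep members, at 1.24.

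The S100a4 ratio lay on the other side of 1 when the members were split. Over all members it was at 466 CPM in Mgl2DTR and 276 CPM in WT, a ratio of 1.69 (1.37 to 2.07). Within members with Gzma it was at 71.4 CPM in Mgl2DTR and 136 CPM in WT (0.524, 0.301 to 0.870), and within members without Gzma at 1148 CPM in Mgl2DTR and 1639 CPM in WT (0.701, 0.547 to 0.902). The value in WT members with Gzma rests on a few cells, since 46 of their 84 S100a4 UMIs were in 3 cells, which held 24, 13 and 9. A UMI of S100a4 was found in 12 of 66 Mgl2DTR members with Gzma (18.2%) and 31 of 162 WT members with it (19.1%). In the sum over all members, those without Gzma were 26.7% of the Mgl2DTR cells and 7.95% of the WT cells.

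Cell cycle and heat shock genes were more often higher than lower. Of 14 cell cycle genes, 6 were higher and 0 lower, where 5.34% of all measured genes were higher, with a median log2 ratio of 0.51. Stmn1, a tubulin regulator, was at 873 CPM in Mgl2DTR and 404 CPM in WT, Ube2c, a mitotic ubiquitin enzyme, at 228 CPM in Mgl2DTR and 94.1 CPM in WT, and Mki67, the proliferation marker, at 214 CPM in Mgl2DTR and 141 CPM in WT. Members with 2 or more UMIs of Mki67 and Top2a were 9 of 90 in Mgl2DTR (10.0%) and 11 of 176 in WT (6.25%). Of 9 heat shock genes, 3 were higher and 0 lower (list median 0.46), with the chaperones Hsp90aa1 at 773 CPM in Mgl2DTR and 463 CPM in WT and Hspd1 at 312 CPM in Mgl2DTR and 194 CPM in WT. Summed heat shock levels were also above WT in Mgl2DTR T cells (5788 CPM in Mgl2DTR and 4864 CPM in WT) and B cells (7641 CPM in Mgl2DTR and 5112 CPM in WT), as were the cell cycle sums (T cells 3997 CPM in Mgl2DTR and 3353 CPM in WT, B cells 4478 CPM in Mgl2DTR and 2691 CPM in WT), so both differences were also present outside the members. Without members holding other types' markers the ratio of Stmn1 was 0.625 and that of Hsp90aa1 0.997. Immediate early genes had 2 higher (Jun and Egr1) and 1 lower (Dusp2) of 15, with a median log2 ratio of 0.19. Interferon response genes had 1 higher and 2 lower of 12 (list median −0.29), with the ubiquitin-like Isg15 at 69.0 CPM in Mgl2DTR and 135 CPM in WT. No gene was called among 11 of MHC class I (list median −0.10), where B2m was at 2019 CPM in Mgl2DTR and 2269 CPM in WT, or among 7 of survival and death (list median −0.14), and 1 of 10 glycolysis genes was lower, Pfkp (list median −0.03). Of all measured genes 5.34% were higher and 4.62% lower, so these small counts are no result about the lists.

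By the rule for single genes, the 12 highest and 12 lowest ratios among called genes detected in at least 10% of the members of the higher genotype are named. The higher ones, after Il7r, Crtam and the thymidylate synthase gene Tyms, were Ramp1, part of a receptor for the neuropeptide CGRP (150 CPM in Mgl2DTR and 44.1 CPM in WT, ratio 3.40), the calmodulin-binding Nrgn (554 CPM in Mgl2DTR and 184 CPM in WT, 3.02), the serine synthesis enzyme Phgdh (119 CPM in Mgl2DTR and 41.2 CPM in WT, 2.89), the glycolipid anchor gene Pigp (ratio 2.67), the cell cycle kinase Cdk6 (2.66), the Hsp90 cochaperone Fkbp4 (2.65), the kinase Vrk1 (2.52) and the histone gene Hist1h2ap (2.47), a member of a family of near copies. The largest ratio, 32.4 for the interferon-induced Ifitm1, came from 160 UMIs in Mgl2DTR and 8 in WT, and 134 of the 160 were in the deepest Mgl2DTR member. Ifitm1 was at 640 CPM in Mgl2DTR B cells and 6.85 CPM in WT B cells.

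The lower genes were Marcks (26.2 CPM in Mgl2DTR and 122 CPM in WT, ratio 0.214), an actin and membrane regulator, the ETS factor Etv3 (0.256), the proteoglycan Gpc1 (0.281), the zinc finger factor Klf3 (23.8 CPM in Mgl2DTR and 76.4 CPM in WT, 0.311), Sh2d1a, the macrophage perforin Mpeg1 (0.334), Sertad2 (0.339), the lymphocyte GTPase Gimap7 (30.9 CPM in Mgl2DTR and 89.7 CPM in WT, 0.345), the lysozyme gene Lyz2 (0.360), Btbd7 (0.387), Il10ra and Phf20l1 (0.396). Marcks and Etv3 were also lower in Mgl2DTR T cells, with ratios of 0.659 and 0.618, and in B cells, with ratios of 0.590 and 0.458. Lyz2 marks macrophages and neutrophils: 89 of its 189 WT UMIs were in 1 member. It was detected in more Mgl2DTR members (31.1%) than WT members (19.9%), and its ratio at equal weight per cell was 0.831. Of the 24 named genes, 13 kept their call with 6 or more NK UMIs, 4 kept it after thinning to 2000 UMIs, and 4 of 23 kept it without members over 2 times the median UMIs, while 24 of 24 kept their direction after thinning and 21 of 23 without the deep members. Without members holding other types' markers, 17 could be computed, of which 0 kept the call and 15 the direction.

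**Figure D5:**
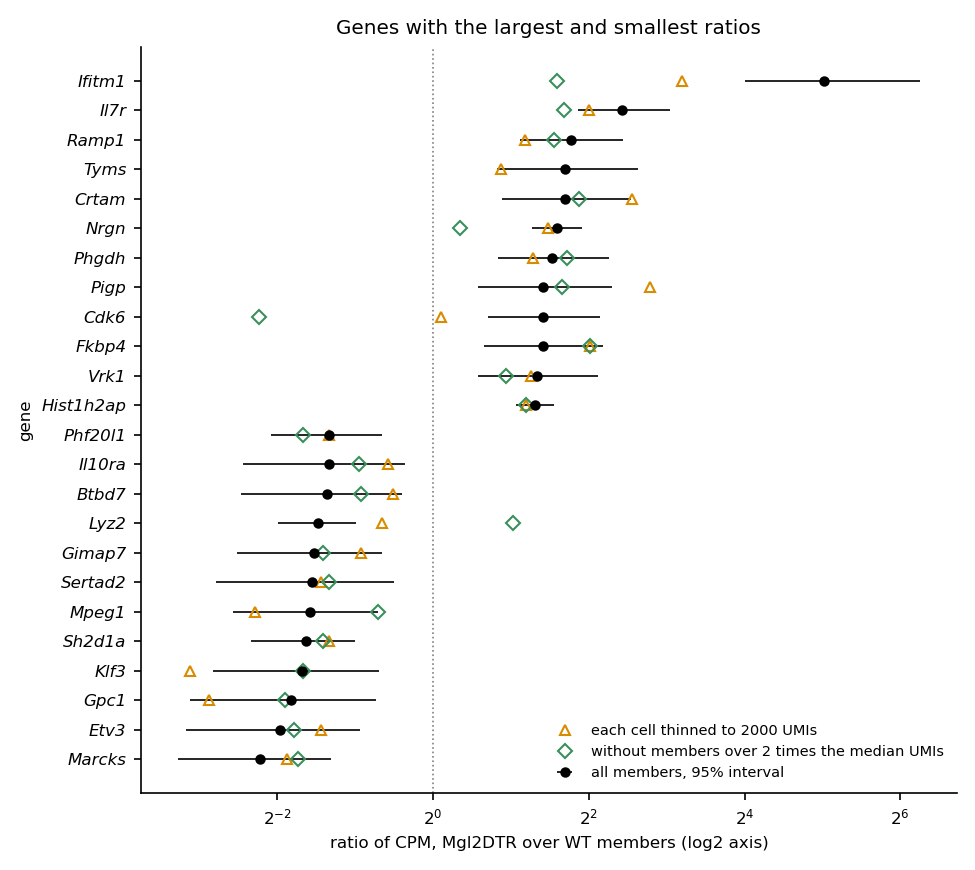
Black points give the Mgl2DTR to WT ratio of the 24 named genes (log2 axis) with exact 95% intervals, and open symbols the ratio after thinning to 2000 UMIs per cell and without members over 2 times the median UMIs. Il7r stayed well above 1 in both, and Cdk6 (0.213) and Lyz2 (2.04) crossed 1 without the deep members.

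Markers of other cell types moved with genotype in some lists. Monocyte and macrophage markers summed to 264 CPM in Mgl2DTR members and 492 CPM in WT members. Lyz2 was called lower, although 31.1% of Mgl2DTR and 19.9% of WT members had a UMI of it, and 1 WT member held 89 UMIs. Conventional dendritic cell markers summed to 1727 CPM in Mgl2DTR and 2441 CPM in WT, with Fscn1 (9.51 CPM in Mgl2DTR and 100 CPM in WT) and Ccl22 (11.9 CPM in Mgl2DTR and 91.1 CPM in WT) lower. Neutrophil markers summed to 428 CPM in Mgl2DTR and 644 CPM in WT, B cell markers to 293 CPM in Mgl2DTR and 307 CPM in WT, and T cell markers to 766 CPM in Mgl2DTR and 673 CPM in WT, against 6533 CPM in Mgl2DTR and 7321 CPM in WT T cells. The T cell list holds Cd3d, Cd3e and Cd3g, the dendritic list Cd74, H2-Aa and H2-Ab1, and the neutrophil list S100a8 and S100a9. The rule capped these genes in members, and T cells were chosen on Cd3 UMIs, so the distance from T cells was partly set in advance. Plasmacytoid dendritic cell markers summed to 559 CPM in Mgl2DTR and 548 CPM in WT, with Ly6d called higher and Siglech lower, and gamma-delta and NKT markers to 83.3 CPM in Mgl2DTR and 63.2 CPM in WT. Thymic epithelial markers summed to 11.9 CPM in Mgl2DTR and 7.35 CPM in WT, and erythroid markers to 2.38 CPM in Mgl2DTR and 4.41 CPM in WT. Of the defining genes, the B cell gene Ms4a1 was at 0 in Mgl2DTR, Rag2 was at 0 in both genotypes, and the mast cell gene Cpa3 had 25 UMIs in Mgl2DTR and 0 in WT, with Mcpt8, Ms4a2 and Fcer1a at 0 in both. The part of these markers in the genotype differences was not tested, beyond the values without members that held them: in their absence Il7r had a ratio of 6.01 on fewer than 50 UMIs, Ltb 2.08, Ccl5 0.976 and Cd69 0.777.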

How the data were processed

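Droplet libraries of thymus cells of both genotypes were made with the 10x 3′ kit as 1 pool, with hashtag antibodies marking the genotype. The submitters' processing notes name Seurat 4.0.4, Cell Ranger 6.0.0 and, as the genome, mm10; which gene annotation was used is not given here. Gene values were deposited as unnormalized UMI counts of 28926 cells over 20451 genes. The deposited annotation also gives a score per cell, the margin between hashtags, which served to leave out poorly separated cells in an alternative. Genotype was taken from the deposited hashtag call. Cells with a pair of hashtags (9829) or none (78) were left out, doublets of the same genotype cannot be seen by hashtag, and no doublet caller was run. The third hashtag is named IL4RaKO in the deposited hashtag tables and uncategorized in the deposited annotation and feature table. No cell had it as its single call, since the 28926 cells were 7433 Mgl2DTR, 11586 WT, 9829 with a pair and 78 with none. Any cells called for it were therefore among those left out.

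UMIs were summed over the members of a genotype and scaled to a total of 1000000 (CPM). Intervals are exact Poisson, binomial or conditional intervals at 95% and cover counting error only, and the 2 genotypes are single libraries, so no test was possible and sizes are given. A gene with 50 or more summed UMIs was measured, and called at a ratio of 1.5 either way with its interval on that side of 1. The calling step was tested on simulated counts drawn with counting error alone. They had no spread between cells, which these data have, so that test does not show how the calls fare under such spread. Named genes are the 12 largest and 12 smallest ratios among called genes with a UMI in at least 10% of members of the higher genotype, leaving out rule, mitochondrial, ribosomal and predicted genes, and examples from role lists, taken as the highest in level and the most changed. Others were chosen after their values were seen: the genes of the split by Gzma, Ccl1, Cpa3, Fscn1, Ccl22 and the 2 deep cells with Il7r. The members, lists and tests were chosen with earlier results of these data known. T cells had 3 or more Cd3 UMIs, B cells 3 or more of Cd79a, Cd79b and Ms4a1, both with 0 NK UMIs. Gene positions are those of the GENCODE mm10 annotation, and promoters are from RefSeq. Thinning drew 2000 UMIs per cell and left out shallower cells. Alternatives changed the UMI minimum, the ratio, the scaling, the members and the weight of each cell. Versions were matplotlib 3.10.9, pandas 2.3.3, scipy 1.17.1 and numpy 2.4.6 under Python 3.11.15. A few genes of the lists are not reported here.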

Additional observations from a re-analysis of the deposited data

Results flagged for a closer look

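A signal was present in cells that no comparison used. Of the 9829 cells with a pair of hashtags, 70 (0.712%) met the UMI rule for members, with a median of 4151 UMIs. In 46 of them the strongest pair was Mgl2DTR and WT, in 11 Mgl2DTR and the third hashtag, and in 13 WT and the third hashtag. Their summed levels were 1266 CPM of Nkg7, 3416 CPM of Gzma, 4553 CPM of Ccl5, 122 CPM of Il7r, 165 CPM of Ltb and 1460 CPM of Lyz2, and 7 of the 70 (10.0%) had no Gzma UMI.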

How the results depend on the processing

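No paired analysis was possible because each genotype is 1 library, and leaving out a replicate was not possible for the same reason. Counts of genes higher and lower in Mgl2DTR members were 28 and 31 with at least 200 UMIs, 270 and 232 with at least 20, 45 and 44 at a ratio of 2, 46 and 44 after thinning, 20 and 25 without members holding other types' markers, 59 and 61 without members over 2 times the median UMIs (deep members), and 45 and 34 in members without Gzma alone, an alternative chosen after seeing the data. Fewer genes were measured in each of these except at the ratio of 2 and the 20 UMI minimum. The ratio of the members' shares lay wholly below 1 with 6 NK UMIs (0.675), without deep members (0.744), over cells that were not T cells (0.648) and after thinning (0.689). The ratio of the shares without Gzma no longer lay wholly above 1 without members holding other types' markers (2.78), and stayed above 1 in the other 4 alternatives, all chosen after seeing the data. List medians moved to −1.1 for granule genes and −0.48 for activating receptors in cells of high hashtag margin, 0.03 for activating receptors and 0.1 for heat shock genes without other types' markers, and −0.57 for interferon genes in members with Gzma. The cause was not tested.

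Ratios turned to the other side of 1 for Cdk6 with 6 NK UMIs (0.811) and at equal weight per cell (0.873), for Ly6c2 after thinning (1.13), and for Lyz2 (2.04), Cdk6 (0.213), Ly6c2 (1.24) and Cd69 (0.992) without deep members. Without other types' markers they turned for Il10ra (1.09), Hist1h2ap (0.304), Thy1 (1.53), Serpinb9 (1.00), Ahr (0.859), Cd69 (0.777), Stmn1 (0.625), Hsp90aa1 (0.997) and Jun (0.859). In members without Gzma they turned for Lyz2 (1.65), Crtam (0.618), S100a4 (0.701), Ccl5 (1.47), Cd160 (0.918), Ikzf2 (0.823), Ly6c2 (3.29) and Cd69 (0.802), and in members with Gzma for S100a4 (0.524). Among genes not called, Gzmc (1.39) turned without the cell highest in Gzmc in each genotype (0.471) and without deep members (0.259). It also turned without other types' markers (0.469) and in members without Gzma (0.351). Gzmb (1.01) turned with 0 Cd3 UMIs (0.837) and at high hashtag margin (0.354). Of 59 called genes in the text, 59 kept the call under median scaling and without members over 5% mitochondrial UMIs, 46 with 0 Cd3 UMIs, 41 at high hashtag margin, 41 at equal weight, 53 of 58 without the cell highest in the gene, 28 of 58 with 6 NK UMIs, 14 of 58 after thinning, 14 of 56 without deep members and 3 of 46 without other types' markers. Depth limits these values: members without Gzma held 38 cells, and single cells carried much of a sum.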
